A study of Mus musculus with 12 samples.

Results

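The BCL2 family of apoptosis regulators was followed through 10 genes in mouse embryonic fibroblasts (MEFs). The genes were chosen by symbol, namely Bcl2, Bcl2l1, Mcl1, Bax, Bak1, Bid, Bcl2l11, Bbc3, Pmaip1 and Bad, and are 10 of the 55573 genes in the deposited tables. Each symbol matched 1 row, and all 10 genes passed the filter on low counts. RNA sequencing libraries of 4 groups were compared, with 3 independent cultures in each group. The Fadd/Mlkl knockout group was Fadd -/- Mlkl -/- cells carrying an empty vector, and the Fadd-restored group was the same cells with FADD expressed again. The Casp8/Mlkl knockout group was Casp8 -/- Mlkl -/- cells carrying an empty vector, and the Casp8-restored group was the same cells with caspase-8 expressed again. The first pair of groups is called the Fadd line and the second pair the Casp8 line. All 4 groups carried the Mlkl knockout and had been immortalised with SV40 large T antigen, a viral protein that binds p53. The cells were untreated and were harvested 24 h after plating. A group with intact Mlkl was not analysed here, and the labels state neither the number of clones behind each line nor the promoters of the vectors. A difference between the lines therefore cannot be told apart from a difference between the knocked-out genes, and p-values measure the spread between cultures of a line.

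BCL2 family proteins control whether the outer mitochondrial membrane is opened during apoptosis, which releases cytochrome c and leads to caspase activation. BCL2, BCL-XL (from Bcl2l1) and MCL1 hold the membrane closed by binding the pore-forming effectors BAX and BAK (from Bak1). The BH3-only proteins BID, BIM (from Bcl2l11), PUMA (from Bbc3), NOXA (from Pmaip1) and BAD bind the protective members or the effectors and tip the balance towards opening. Caspase-8, which FADD recruits to death receptors, cleaves BID and so connects those receptors to mitochondria. Transcripts were measured in these libraries, and protein levels and BID cleavage were not. In bulk RNA, fewer cells expressing a gene and less RNA per cell cannot be told apart.

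The promoters of 3 genes are shown because of how their transcripts varied across the libraries. Bcl2l1 was lower in the knockout in all 3 same-numbered pairs of the Fadd line and higher in all 3 of the Casp8 line. Mcl1 and Bbc3 were both highest in replicate 1 of every group. Each sequence is the RefSeq window from 250 bases before to 50 bases after a transcript start in build GRCm38.p6, written 5′ to 3′ on the strand of the gene. Capitals mark matches to the GC box GGGCGG on either strand. The windows are chr2:152831679-152831978 on the minus strand for Bcl2l1, chr3:95658471-95658770 on the plus strand for Mcl1 and chr7:16309333-16309632 on the plus strand for Bbc3.

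Bcl2l1: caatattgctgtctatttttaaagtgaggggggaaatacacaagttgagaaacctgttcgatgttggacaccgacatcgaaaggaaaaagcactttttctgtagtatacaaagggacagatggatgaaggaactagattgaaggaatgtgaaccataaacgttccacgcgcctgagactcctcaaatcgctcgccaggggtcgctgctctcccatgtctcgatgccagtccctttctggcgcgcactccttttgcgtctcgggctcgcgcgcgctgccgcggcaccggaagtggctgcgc

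Mcl1: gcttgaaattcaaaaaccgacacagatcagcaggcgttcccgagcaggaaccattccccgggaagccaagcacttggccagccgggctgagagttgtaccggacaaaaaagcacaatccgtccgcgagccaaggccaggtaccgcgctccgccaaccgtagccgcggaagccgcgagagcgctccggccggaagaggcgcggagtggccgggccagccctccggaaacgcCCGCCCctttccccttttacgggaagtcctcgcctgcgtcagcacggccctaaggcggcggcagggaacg

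Bbc3: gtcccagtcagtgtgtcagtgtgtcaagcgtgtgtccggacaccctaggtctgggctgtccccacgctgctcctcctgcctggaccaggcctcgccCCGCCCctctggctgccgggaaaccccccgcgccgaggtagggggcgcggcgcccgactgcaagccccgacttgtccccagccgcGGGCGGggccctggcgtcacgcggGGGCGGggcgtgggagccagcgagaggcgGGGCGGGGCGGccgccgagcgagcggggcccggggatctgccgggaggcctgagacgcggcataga

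Bcl2l1 had no GC box in this window or in its other windows, with 3 starts searched in all. The Mcl1 window held 1 GC box and this Bbc3 window held 5, counting matches that overlap, while the windows at the other Bbc3 starts held 4 and 7. Of 32851 mouse promoter windows of this length, 35.7% held at least 1 GC box. Both strands were also searched for the E-box CACGTG (in 7.15% of windows), the cyclic AMP response element TGACGTCA (1.79%) and the interferon response core, which is GAAA, any pair of bases and GAAA again (3.44%), and none of them was in the 3 printed windows. One of the Bbc3 windows not printed, the one with 7 GC boxes, held 1 E-box, and the Bax window held 2. Among the other family genes, the Bcl2 window held 7 GC boxes, the Bax and Bid windows 3 each and the Bak1 window 0. Each Bcl2l11 window held 3, and the Bad windows held 4 and 0. Whether these matches bear on the transcript levels was not tested. RefSeq windows were found for 9 of the 10 genes, and the sequence of Pmaip1 is not shown.

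The targeted genes followed their labels where the counts could show it. Fadd was listed at 0.02, 0.01 and 0.01 TPM (transcript level scaled by length and library) in the Fadd/Mlkl knockout libraries, against 4.24, 3.05 and 3.99 TPM in the Fadd-restored libraries. Casp8 was 3.51, 3.11 and 3.34 TPM in the Casp8/Mlkl knockout libraries, against 28.6, 70.8 and 76.5 TPM in the Casp8-restored libraries. In the line where the gene was not knocked out, Fadd was 1.39 to 2.08 TPM and Casp8 10.5 to 17.2 TPM. Every restored library was above those levels, so restored does not mean a return to them. The fitted log2 changes were -7.84 for Fadd and -3.63 for Casp8 (adjusted p = 1.32e-05 and 0.00371, edgeR). Mlkl transcripts were counted at 1.43 to 6.22 TPM in all 12 libraries, and the labels do not state which part of Mlkl was deleted, so its counts check no label. Depth ran between 33918359 and 59388559 counts per library. Of 10 fibroblast markers, 6 or 7 reached 1 TPM in each group, and their sum was 493 to 685 TPM in the Fadd/Mlkl knockout, 802 to 984 in the Fadd-restored, 1618 to 3156 in the Casp8/Mlkl knockout and 2039 to 2537 TPM in the Casp8-restored group. Thy1 and Lum were at 0 counts in all libraries of the Fadd line, and Thy1 also in the Casp8-restored libraries. The marker Col1a2 averaged 0.143 TPM in the Fadd/Mlkl knockout and 33.0 TPM in the Fadd-restored group. In the Casp8 line it averaged 584 TPM (knockout) and 567 TPM (restored). The 7 leukocyte markers summed to at most 2.0 TPM in any library, the 5 endothelial markers to 0.15, the 5 muscle markers to 0.67 and the 7 epithelial markers to 15.8 TPM. The 6 neural markers summed to 18.3 to 27.8 TPM in the Fadd line and 31.3 to 97.5 TPM in the Casp8 line. Of these, 3 reached 1 TPM in each group, while Rbfox3 and Sox10 were at 0. The part of the marker levels in the differences between lines was not tested. The first principal component held 52.3% of the variance, and the replicate 1 libraries of the Casp8 line, at 22.3 (knockout) and 36.3 (restored), lay between the other Casp8-line libraries (81.9 to 103) and the Fadd line (-114 to -38.3). Results that rest on these 2 libraries are given with and without them.

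Restoring FADD or caspase-8 was accompanied by no called change in the family. A gene is called when its adjusted p, over all 16396 genes tested in edgeR, is under 0.05. In the Fadd line, knockout against restored, 0 of the 10 genes were called, against 1.52% of all genes tested. In the Casp8 line 0 of 10 were called, against 0.0061% of all genes, which is 1 gene, Casp8. Without adjustment 0 of 10 were under 0.05 in either line, against 10.3% of all genes in the Fadd line and 5.67% in the Casp8 line, and DESeq2 also called 0 of 10 in both. These fits left the replicate numbers out. With the number as a block within each line, 0 of 10 were again called in either line. The difference between the lines in their knockout changes was called for 0 of 10 genes, against 0.842% of all genes, and without adjustment also for 0, against 7.40%, and DESeq2 called 0 as well. The median log2 change over the 10 genes was -0.012 in the Fadd line and 0.12 in the Casp8 line, beside 0.0037 and 0.0079 over all genes tested. The median size of the change, ignoring sign, was 0.11 and 0.19 for the family, beside 0.22 and 0.21 for all genes. With 3 libraries a group and a common biological coefficient of variation of 0.37, the 95% intervals were wide, and a change that was not called is not shown to be absent.

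**Figure D1:**
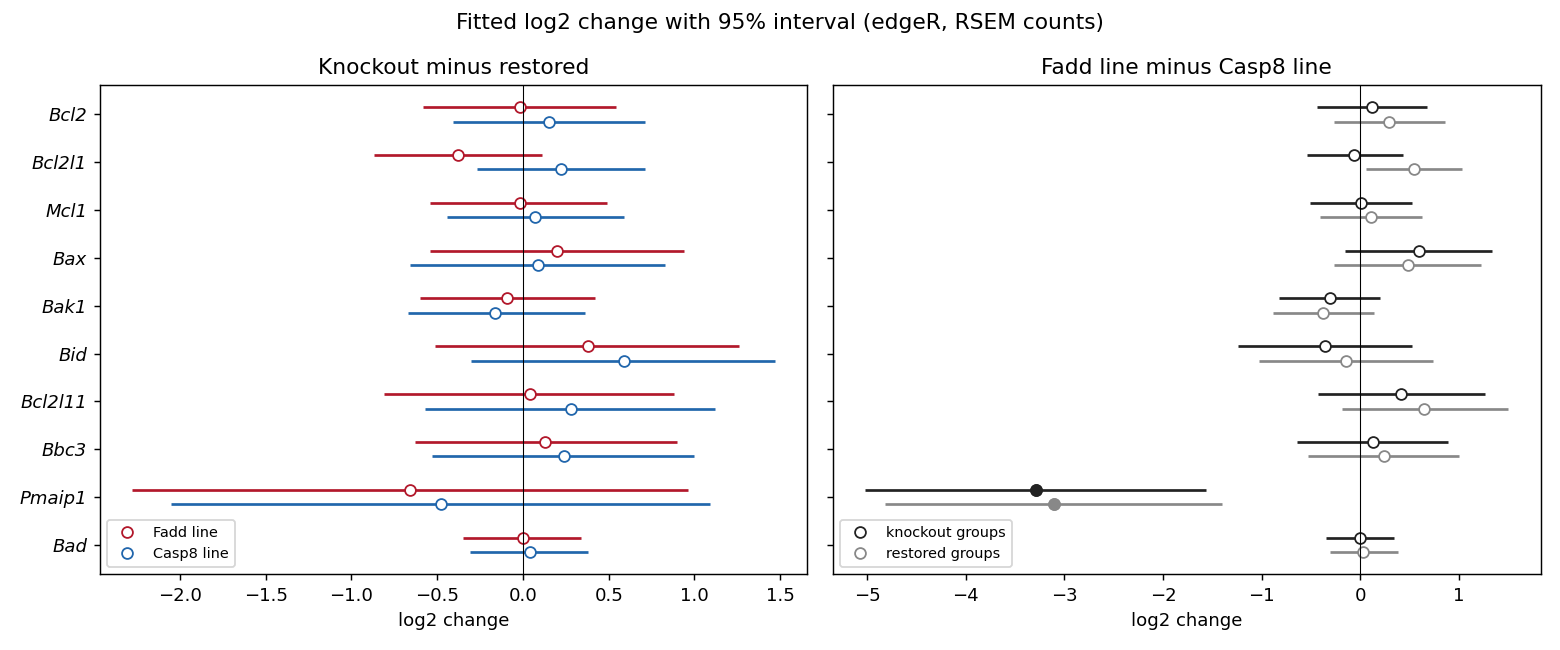
Fitted log2 change of each of the 10 genes with its 95% interval, knockout minus restored in each line on the left and Fadd line minus Casp8 line on the right; filled points are called. All intervals on the left include 0, and Pmaip1 on the right is called, at -3.29 in the knockout groups and -3.11 in the restored groups.

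**Figure D2:**
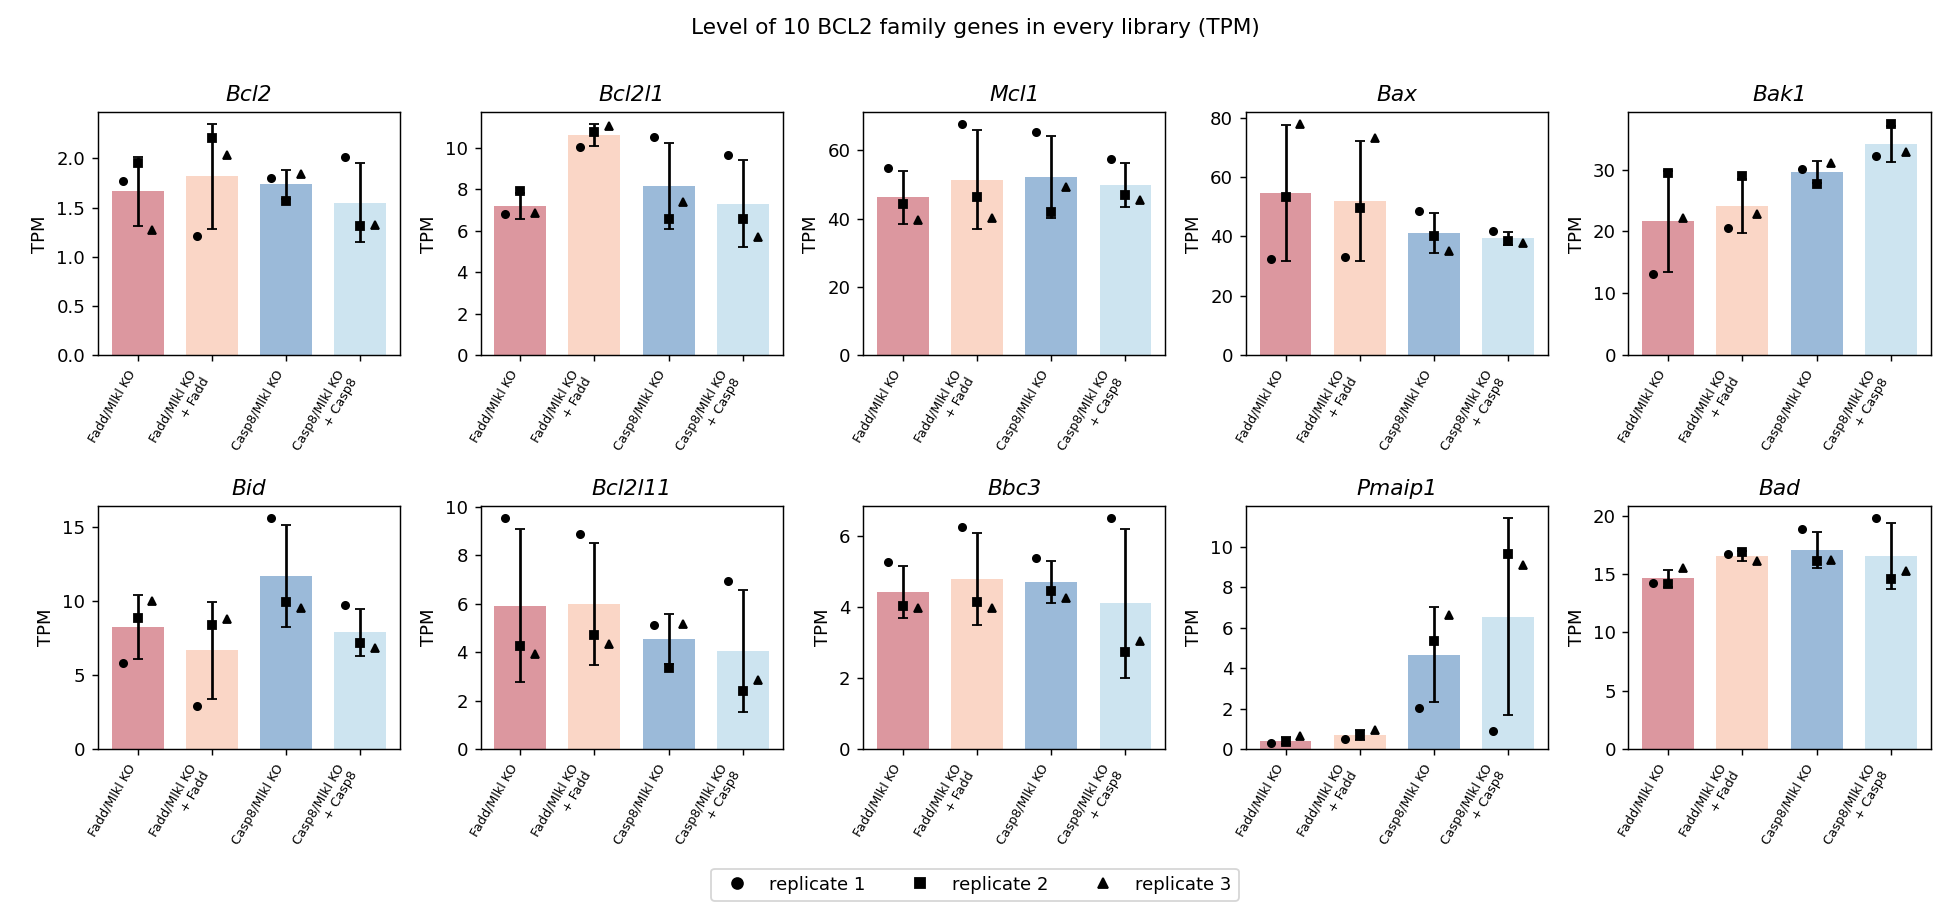
Level of each of the 10 genes in TPM for all 12 libraries, with bars for group means, error bars for the SD (n = 3) and a symbol for each replicate number. Mcl1 lies between 39.6 and 67.7 TPM in all libraries, and Pmaip1 under 1 TPM in every Fadd-line library.

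Among the protective members, Mcl1 was by far the most abundant on the TPM scale, and Bcl2l1 was the one of the 3 whose knockout and restored libraries did not overlap in the Fadd line. Mcl1, on chr3:95658788-95663176, encodes a short-lived protein that restrains BAK and binds NOXA. It was 54.7, 44.2 and 39.6 TPM in the Fadd/Mlkl knockout libraries, against 67.7, 46.2 and 40.1 TPM in the Fadd-restored libraries. Mcl1 was 65.3, 42.0 and 49.1 TPM in the Casp8/Mlkl knockout libraries, against 57.3, 46.8 and 45.5 TPM in the Casp8-restored libraries. Replicate 1 was the highest library in all 4 groups, and the groups overlapped. The log2 change was -0.02 (95% interval -0.54 to 0.49) in the Fadd line and 0.07 (-0.44 to 0.59) in the Casp8 line. The group means of Mcl1, on the log2 CPM scale (counts relative to the scaled library size), had an SD of 0.035, which was the second smallest of the 10 genes, after Bad.

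Bcl2l1, on chr2:152780668-152831728, encodes BCL-XL, which restrains BAX and BAK. It was 6.81, 7.90 and 6.86 TPM in the Fadd/Mlkl knockout libraries, against 10.0, 10.8 and 11.1 TPM in the Fadd-restored libraries. All 3 knockout libraries were below all 3 restored ones, both in TPM and in CPM. In CPM it was the 1 family gene of 10 without overlap in this line, where 16.5% of all genes had none, and in TPM it was 1 of 2, with Bad (16.4% of all genes). Its log2 change was -0.38 ± 0.221 (SE), with a 95% interval from -0.87 to 0.11, and it was not called (adjusted p = 0.689, edgeR). With the replicate number as a block within each line the change was -0.37, also not called (adjusted p = 0.137, edgeR). In the Casp8 line Bcl2l1 was 10.5, 6.55 and 7.41 TPM in the knockout libraries, against 9.67, 6.59 and 5.69 TPM in the restored libraries. These groups overlapped, with replicate 1 highest in both, and the log2 change was 0.22 (-0.27 to 0.71), or -0.03 without knockout replicate 1. Across the 4 groups the means were 7.19 ± 0.615 (Fadd/Mlkl knockout), 10.6 ± 0.537 (Fadd-restored), 8.16 ± 2.08 (Casp8/Mlkl knockout) and 7.32 ± 2.09 TPM (Casp8-restored; SD, n = 3 each). Neighbouring groups in the order of these means overlapped in range.

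Within a line, libraries of 1 replicate number tended to deviate alike, so knockout and restored libraries were also set side by side by number. The tendency was weak in the Casp8 line, where deviations correlated at 0.203, 0.305 and 0.127, against 0.66, 0.391 and 0.639 in the Fadd line. Across the restored groups of the lines the correlations were 0.317, 0.161 and 0.243. For Bcl2l1 the log2 CPM difference, knockout minus restored, was -0.20, -0.40 and -0.52 in replicates 1, 2 and 3 of the Fadd line, and 0.25, 0.19 and 0.21 in those of the Casp8 line. Bcl2l1 was the 1 gene of the 10 that was lower in all 3 Fadd-line pairs and higher in all 3 Casp8-line pairs, a pattern that 3.53% of all genes showed. The difference between the lines was -0.60 ± 0.313 (SE) on the log2 scale, with an interval from -1.29 to 0.09 (adjusted p = 0.81, edgeR), and with the replicate number as a block within each line it was -0.59 (adjusted p = 0.154). Without the replicate 1 libraries of the Casp8 line it was -0.58 (adjusted p = 0.21). The opposite direction in the lines was thus seen in all 6 pairs, with weak pairing in the Casp8 line, and did not pass the test.

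**Figure D3:**
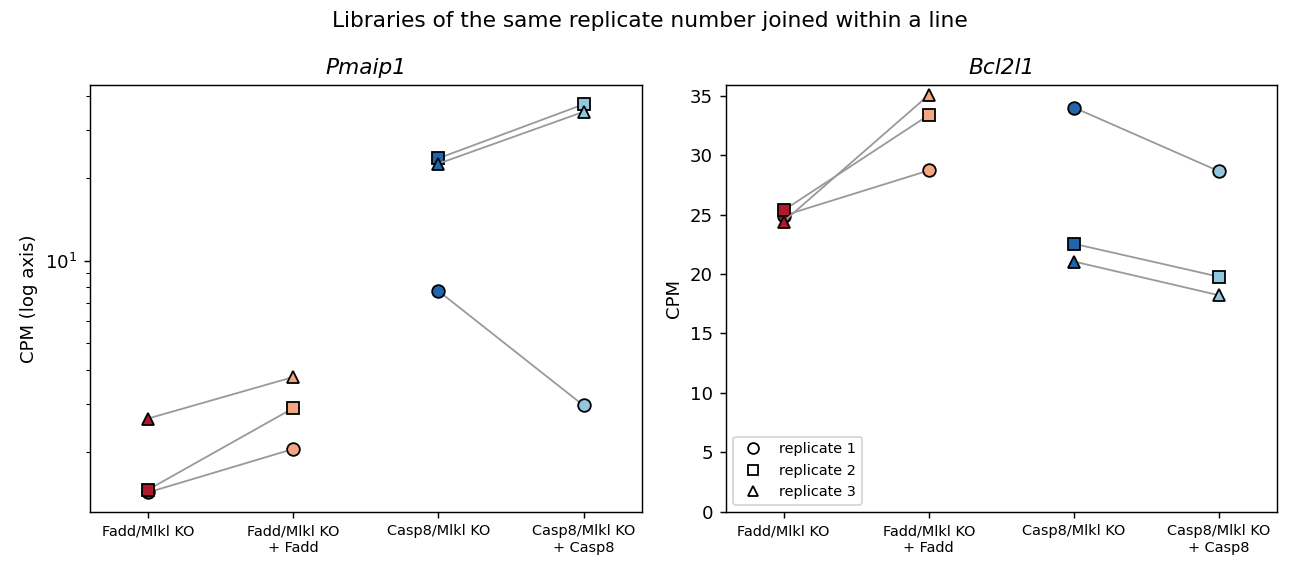
CPM of Pmaip1 (left, log axis) and Bcl2l1 (right) in each library, with lines that join the knockout library to the restored library of the same replicate number. The Bcl2l1 lines run upward to the restored library in all 3 Fadd-line pairs and downward in all 3 Casp8-line pairs, and the Casp8-line replicate 1 libraries of Pmaip1, at 7.74 (knockout) and 2.96 CPM (restored), lie apart from the others of their groups.

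Bcl2, on chr1:106538178-106714274, encodes the protein that gave the family its name. It was low, at 1.77, 1.95 and 1.27 TPM in the Fadd/Mlkl knockout libraries, against 1.21, 2.21 and 2.03 TPM in the Fadd-restored libraries. Bcl2 was 1.80, 1.57 and 1.84 TPM in the Casp8/Mlkl knockout libraries, against 2.01, 1.31 and 1.32 TPM in the Casp8-restored libraries. All 4 groups overlapped, and the pairs did not agree in sign in either line. The log2 change was -0.02 (-0.58 to 0.54) in the Fadd line and 0.15 (-0.41 to 0.71) in the Casp8 line. An annotated antisense gene, D630008O14Rik, overlaps 33103 bases of Bcl2, and the labels do not state whether the counting used strand.

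The effectors differed in which libraries were high. Bax, on chr7:45461697-45466898, encodes a pore-forming effector that moves from the cytosol to mitochondria. It was 32.4, 53.4 and 77.9 TPM in the Fadd/Mlkl knockout libraries, against 33.1, 49.6 and 73.3 TPM in the Fadd-restored libraries. Bax was 48.5, 40.2 and 35.0 TPM in the Casp8/Mlkl knockout libraries, against 41.9, 38.5 and 37.8 TPM in the Casp8-restored libraries. In the Fadd line replicate 1 was lowest and replicate 3 highest in both groups, so more of the spread lay between replicate numbers than between knockout and restored cells. The difference within pairs, knockout minus restored, was 0.22, 0.18 and 0.20 on the log2 CPM scale in the Fadd line, beside a range of 1.21 among the knockout libraries and 1.22 among the restored libraries. The fitted log2 change was 0.20 (-0.54 to 0.94) in the Fadd line and 0.09 (-0.66 to 0.83) in the Casp8 line. These intervals come from the fit without pairs, so they include the spread between replicate numbers. With the replicate number as a block within each line, Bax was also not called in either line.

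Bak1, on chr17:27019810-27029009, encodes the effector BAK, which sits in the outer mitochondrial membrane. It was 13.2, 29.5 and 22.2 TPM in the Fadd/Mlkl knockout libraries, against 20.6, 29.0 and 22.9 TPM in the Fadd-restored libraries. Bak1 was 30.1, 27.7 and 31.1 TPM in the Casp8/Mlkl knockout libraries, against 32.2, 37.4 and 32.8 TPM in the Casp8-restored libraries. The Casp8 line's groups did not overlap in TPM, with every knockout library below every restored library, but they overlapped in CPM. Bak1 was the 1 gene of 10 without overlap in TPM in this line, where 8.92% of all genes had none. The log2 change was -0.09 (-0.60 to 0.42) in the Fadd line and -0.16 (-0.67 to 0.36) in the Casp8 line. All 9200 bases of Bak1 also lie within Ggnbp1 on the opposite strand, so the same limit holds for its counts.

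Among the BH3-only genes, Bid is the one with a direct link to caspase-8. Bid, on chr6:120891930-120916853, was 5.84, 8.83 and 9.99 TPM in the Fadd/Mlkl knockout libraries, against 2.91, 8.36 and 8.74 TPM in the Fadd-restored libraries. Bid was 15.6, 9.90 and 9.5 TPM in the Casp8/Mlkl knockout libraries, against 9.70, 7.16 and 6.79 TPM in the Casp8-restored libraries. The groups overlapped in both lines, and the lowest single library was Fadd-restored replicate 1. Within pairs the knockout library was higher every time, by 1.16, 0.09 and 0.30 on the log2 CPM scale in the Fadd line and by 0.82, 0.47 and 0.36 in the Casp8 line. Bid was the 1 gene of the 10 that was higher in all 6 pairs, which 4.87% of all genes were. Its log2 change was 0.38 ± 0.402 (SE; interval -0.51 to 1.26) in the Fadd line and 0.59 ± 0.403 (-0.30 to 1.47) in the Casp8 line, and neither was called (adjusted p = 0.955 and 0.952, edgeR). With the replicate number as a block within each line the changes were 0.51 and 0.55, also not called (adjusted p = 0.301 and 0.417, edgeR). The means were 8.22 ± 2.14 (Fadd/Mlkl knockout), 6.67 ± 3.26 (Fadd-restored), 11.7 ± 3.41 (Casp8/Mlkl knockout) and 7.88 ± 1.58 TPM (Casp8-restored; SD, n = 3 each). Bid shares 913 bases with Bcl2l13 on the opposite strand.

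More generally, 5 of the 10 genes had the same sign in all 3 pairs of the Fadd line (Bcl2l1, Bax, Bid, Bbc3 and Pmaip1), where 52.6% of all genes did. In the Casp8 line 2 of 10 did (Bcl2l1 and Bid), where 27.5% of all genes did. Both shares are near those of all genes.

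In the order of the 4 group means on the TPM scale, neighbouring groups all overlapped in range for 7 of the 10 genes, as they did for 73.8% of all genes tested. The exceptions were Bak1, with Casp8/Mlkl knockout libraries all below Casp8-restored libraries, Bad, with Fadd/Mlkl knockout libraries all below Fadd-restored libraries, and Pmaip1, with Fadd-restored libraries all below Casp8/Mlkl knockout libraries.

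Bcl2l11, on chr2:128126038-128162547, encodes BIM, which binds all the protective members and activates BAX. It was 9.54, 4.24 and 3.94 TPM in the Fadd/Mlkl knockout libraries, against 8.87, 4.70 and 4.35 TPM in the Fadd-restored libraries. Bcl2l11 was 5.12, 3.35 and 5.16 TPM in the Casp8/Mlkl knockout libraries, against 6.95, 2.38 and 2.84 TPM in the Casp8-restored libraries. Replicate 1 was the highest library in 3 of the groups, and in the Casp8/Mlkl knockout group replicate 3 was. The log2 change was 0.04 (-0.81 to 0.88) in the Fadd line and 0.28 (-0.57 to 1.12) in the Casp8 line. The sign in the Fadd line depended on 1 library, since without knockout replicate 1 the change was -0.46.

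Bbc3, on chr7:16308393-16318205, encodes PUMA, a p53 target that binds all the protective members. It was 5.28, 4.04 and 3.97 TPM in the Fadd/Mlkl knockout libraries, against 6.28, 4.15 and 3.97 TPM in the Fadd-restored libraries. Bbc3 was 5.40, 4.47 and 4.27 TPM in the Casp8/Mlkl knockout libraries, against 6.53, 2.75 and 3.06 TPM in the Casp8-restored libraries. The replicate 1 library was highest in all 4 groups, as it was for Mcl1. The log2 change was 0.13 (-0.63 to 0.90) in the Fadd line and 0.24 (-0.53 to 1.00) in the Casp8 line.

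Bad, on chr19:6941861-6951899, encodes a BH3-only protein that growth factor signalling holds inactive by phosphorylation. It was 14.3, 14.1 and 15.5 TPM in the Fadd/Mlkl knockout libraries, against 16.7, 16.9 and 16.1 TPM in the Fadd-restored libraries. Bad was 18.9, 16.1 and 16.2 TPM in the Casp8/Mlkl knockout libraries, against 19.8, 14.5 and 15.3 TPM in the Casp8-restored libraries. The Fadd line's groups did not overlap in TPM, with the knockout libraries lower, but overlapped in CPM. The fitted log2 change from counts was 0.00 (-0.35 to 0.34) in the Fadd line and 0.04 (-0.31 to 0.38) in the Casp8 line, the narrowest intervals of the 10 genes. From TPM the Fadd-line change was -0.17, and the median of all genes was itself at -0.065 on that scale.

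Pmaip1 was the 1 gene of the family called between the lines, in the knockout and in the restored groups. Its libraries overlapped between the restored groups, and both calls depended on which libraries were used. Pmaip1 lies on chr18:66458533-66465565 and encodes NOXA, a p53 target that binds MCL1 and promotes its degradation. It was 0.30, 0.33 and 0.65 TPM in the Fadd/Mlkl knockout libraries, against 0.49, 0.68 and 0.94 TPM in the Fadd-restored libraries. Pmaip1 was 2.05, 5.32 and 6.60 TPM in the Casp8/Mlkl knockout libraries, against 0.92, 9.64 and 9.07 TPM in the Casp8-restored libraries. Every Fadd-line library was under 1 TPM, and of the Casp8-line libraries only restored replicate 1 was. The means were 0.427 ± 0.194 (Fadd/Mlkl knockout), 0.703 ± 0.226 (Fadd-restored), 4.66 ± 2.35 (Casp8/Mlkl knockout) and 6.54 ± 4.88 TPM (Casp8-restored; SD, n = 3 each).

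Between the knockout groups, Fadd line against Casp8 line, Pmaip1 was 1.42, 1.46 and 2.65 CPM in the Fadd/Mlkl knockout libraries, against 7.74, 23.6 and 22.6 CPM in the Casp8/Mlkl knockout libraries. The groups did not overlap, for Pmaip1 alone of the 10 genes, where 27.8% of all genes did not. Pmaip1 fell by 3.29 on the log2 scale (SE 0.787, interval -5.02 to -1.56, adjusted p = 0.0221, edgeR), which was 9.78-fold lower in the Fadd/Mlkl knockout. It was the 1 called gene of the 10, against 10.5% of all genes called and 7.01% called lower. Without adjustment it was also the 1 gene under 0.05, against 24.5% of all genes. The family's share of calls was thus near the share among all genes.

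Between the restored groups, Pmaip1 was 2.05, 2.89 and 3.76 CPM in the Fadd-restored libraries, against 2.96, 37.2 and 35.0 CPM in the Casp8-restored libraries. Casp8-restored replicate 1 lay within the range of the Fadd-restored libraries, and the other Casp8-restored libraries lay far above them. Pmaip1 fell by 3.11 on the log2 scale (SE 0.778, interval -4.82 to -1.40, adjusted p = 0.0396, edgeR), or 8.63-fold lower in the Fadd-restored group. Again 1 gene of 10 was called, against 6.34% of all genes called and 3.4% called lower.

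Both calls on Pmaip1 were lost when most single libraries were left out. Without both replicate 1 libraries of the Casp8 line the change was -3.65 between the knockout groups and -3.64 between the restored groups (adjusted p = 0.000127 and 0.000198, edgeR). Calls over all genes then also rose, from 1718 to 3305 and from 1039 to 3118. Without both replicate 1 libraries of the Fadd line the Pmaip1 change was -3.13 and -2.91, and neither was called (adjusted p = 0.0897 and 0.134). Leaving out 1 library at a time gave -3.65 to -3.04 for the knockout groups and -3.65 to -2.71 for the restored groups, and each was called only when replicate 1 of the Casp8-line group was the one left out (adjusted p = 0.0127 and 0.00202, against 0.0508 to 0.0816 and 0.0887 to 0.143 without any other library). Limma-voom called neither (adjusted p = 0.109 and 0.208). The replicate 1 library of the Casp8-restored group also had the lowest Casp8 level of its group, 28.6 TPM, and its part in the Pmaip1 values was not tested.

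Within the Fadd line Pmaip1 was lower in all 3 knockout libraries than in their restored pairs, with differences of -0.53, -0.99 and -0.50 on the log2 CPM scale, and the fitted log2 change was -0.66 (-2.28 to 0.96). Pair differences in the Casp8 line were 1.39, -0.66 and -0.63, so replicate 1 went the other way, and the fitted change was -0.48 (-2.05 to 1.09). Without both replicate 1 libraries of that line it was -0.65 (adjusted p = 0.405, edgeR).

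Besides Pmaip1, Bcl2l1 was the 1 family gene with an unadjusted p under 0.05 between the lines, in the restored groups. It was 28.7, 33.4 and 35.1 CPM in the Fadd-restored libraries, against 28.6, 19.8 and 18.2 CPM in the Casp8-restored libraries, and was the 1 gene of the 10 without overlap in this comparison, where 26.9% of all genes had none. Its log2 difference was 0.54 (0.06 to 1.03). It was not called (adjusted p = 0.182, edgeR), but it was without the replicate 1 libraries of the Casp8 line (0.77, adjusted p = 0.00686). Leaving these libraries out raised the calls over all genes from 1039 to 3118, so the gained call is not particular to Bcl2l1. In the fit of all libraries, Bcl2l1 and Pmaip1 were the 2 of 10 genes under 0.05 without adjustment, against 21.1% of all genes. In the knockout groups Bcl2l1 differed by -0.06 (-0.54 to 0.43), with overlapping libraries. Bax and Bcl2l11 had differences of similar size with wider intervals, Fadd line minus Casp8 line, and neither was called. For Bax the log2 difference was 0.59 (-0.16 to 1.33) between the knockout groups and 0.48 (-0.27 to 1.22) between the restored groups. For Bcl2l11 it was 0.41 (-0.43 to 1.26) between the knockout groups and 0.65 (-0.19 to 1.5) between the restored groups. In the Casp8 line 0 of 10 genes had knockout and restored libraries without overlap in CPM, where 10.7% of all genes had none.

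**Figure D4:**
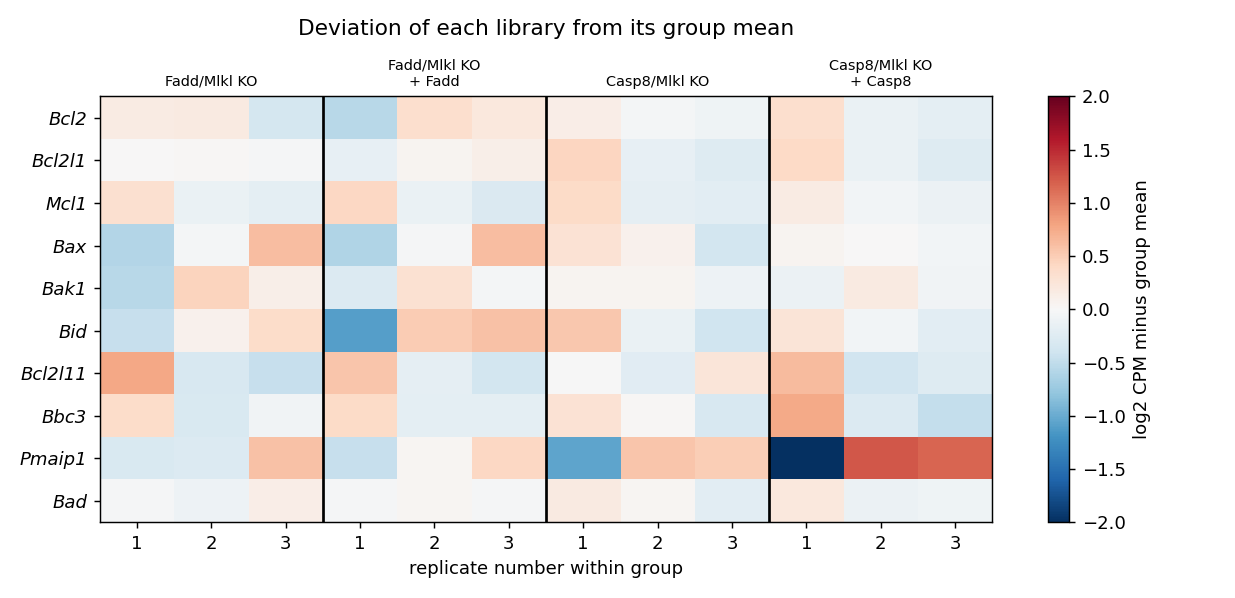
Deviation of each library's log2 CPM from its group mean, for the 10 genes (rows) and 12 libraries (columns, by group and replicate number); red is above and blue below the group mean. Replicate 1 is above its group mean for Mcl1 and Bbc3 and below it for Pmaip1 in all 4 groups.

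Several genes deviated from their group means by replicate number. Mcl1 and Bbc3 had their highest CPM in replicate 1 of all 4 groups, as did 938 of the 16396 genes tested (5.72%). Pmaip1 had its lowest CPM in replicate 1 of all 4 groups, as did 779 genes (4.75%). Bax was lowest in replicate 1 of both Fadd-line groups and highest in replicate 1 of both Casp8-line groups. The range among the 3 libraries of a group was largest for Pmaip1 in the Casp8-restored group, at 3.64 on the log2 CPM scale, and next for Bid in the Fadd-restored group, at 1.68, which was the largest without the replicate 1 libraries of the Casp8 line. Its median over genes and groups was 0.60 for the family, beside 0.63 for all genes tested. Replicate 1 of the Fadd/Mlkl knockout had 81.4% of its counts on protein-coding genes, against 85.0 to 88.8% in the other libraries, and its part in these deviations was not tested.

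The 10 genes were also summed by role on the TPM scale. The protective genes summed to 47.8 to 63.3 TPM in the Fadd/Mlkl knockout, against 53.2 to 78.9 TPM in the Fadd-restored libraries, and to 50.1 to 77.6 TPM in the Casp8/Mlkl knockout, against 52.5 to 69.0 TPM in the Casp8-restored libraries. The effectors summed to 45.6 to 100.1 TPM in the Fadd/Mlkl knockout, against 53.6 to 96.1 TPM in the Fadd-restored libraries, and to 66.1 to 78.6 TPM in the Casp8/Mlkl knockout, against 70.6 to 75.9 TPM in the Casp8-restored libraries. The BH3-only genes summed to 31.6 to 35.2 TPM in the Fadd/Mlkl knockout, against 34.1 to 35.2 TPM in the Fadd-restored libraries, and to 39.1 to 47.0 TPM in the Casp8/Mlkl knockout, against 36.5 to 43.9 TPM in the Casp8-restored libraries. Knockout and restored ranges overlapped for every role in both lines, while every Fadd-line library was below every Casp8-line library in its BH3-only sum. That separation rested on Pmaip1. With it left out, the sums were 31.2 to 34.9 TPM in the Fadd/Mlkl knockout, against 33.8 to 45 TPM in the Casp8/Mlkl knockout, and 33.2 to 34.7 TPM in the Fadd-restored, against 26.8 to 43 TPM in the Casp8-restored libraries, and the lines overlapped. On the log2 TPM scale the median of all genes was itself -0.11 between the knockout groups and -0.039 between the restored groups, Fadd line minus Casp8 line. Mcl1 alone made up 21.8 to 38.0% of the summed TPM in the Fadd/Mlkl knockout, against 21.9 to 40.4% in the Fadd-restored libraries, and 26.7 to 32.1% in the Casp8/Mlkl knockout, against 28.0 to 30.6% in the Casp8-restored libraries.

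**Figure D5:**
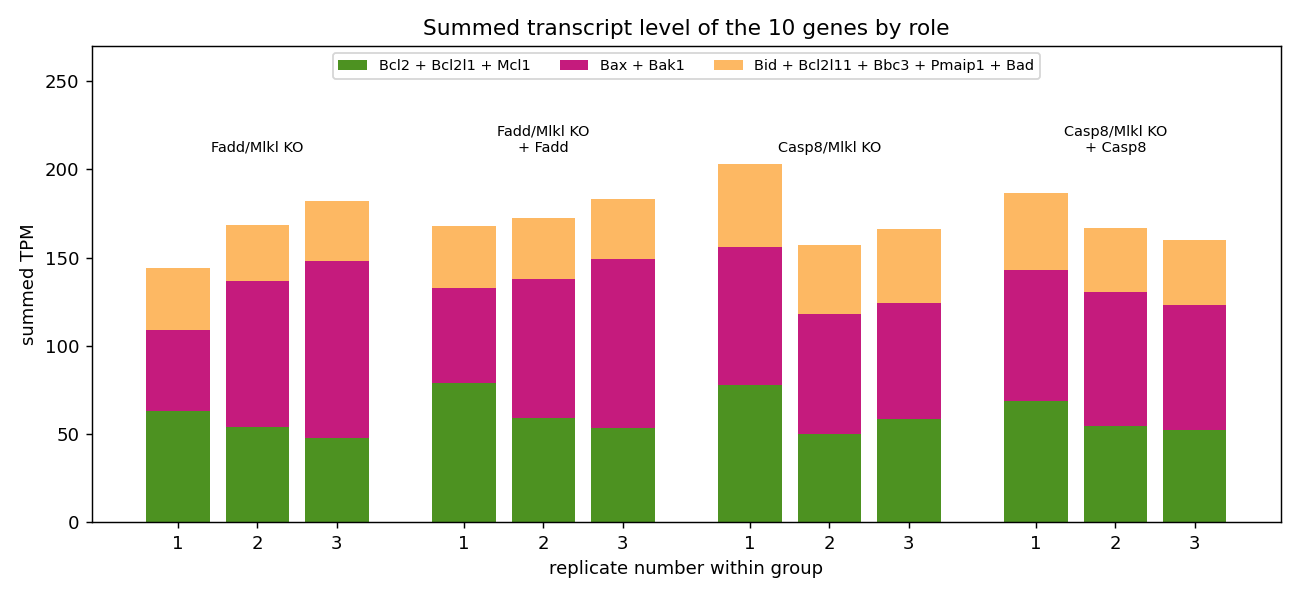
Summed TPM of the protective genes, the effectors and the BH3-only genes in each of the 12 libraries, stacked and grouped by group and replicate number. In the Fadd line the effector part is smallest in replicate 1, at 45.6 (knockout) and 53.6 TPM (restored), and largest in replicate 3, at 100.1 and 96.1 TPM.

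Further genes of the pathway were read from 3 lists. Their median log2 changes in the Fadd line were -0.012 for other family members, 0.041 for downstream genes and -0.013 for transcription regulators, beside 0.0037 for all genes. In the Casp8 line these medians were 0.09, 0.033 and 0.257, beside 0.0079 for all genes. Of 15 other family members, 8 were tested and 0 were called by edgeR in any of the 5 comparisons, where 0.0061 to 10.5% of all genes were. Without adjustment 1 of the 8 was under 0.05 between the knockout groups and 1 between the restored groups (12.5% each). Of all genes 24.5% and 21.1% were. Bcl2a1a, Bcl2a1b and Bcl2a1d, which encode the protective protein A1, had 0 counts in every library. Bnip3, a mitophagy receptor, was the most abundant of the list at a mean of 68.4 TPM over 12 libraries, followed by the related Bnip3l at 38.8 TPM and Bcl2l13 at 13.0 TPM. Their log2 changes, knockout minus restored, were -0.15, -0.22 and 0.15 for the Fadd line, beside 0.17, 0.66 and 0.17 for the Casp8 line. The 95% intervals were -2.19 to 1.89, -1.25 to 0.81 and -0.15 to 0.44 for the Fadd line. For the Casp8 line they were -1.87 to 2.21, -0.37 to 1.7 and -0.12 to 0.46. Bnip3 ran from 15.7 to 244 TPM within the Fadd-restored group.

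Of 16 genes downstream of the mitochondrial step, all were tested and 0 were called by edgeR in the Fadd or the Casp8 line. Among all genes 1.52% and 0.0061% were. Without adjustment 2 of the 16 were under 0.05 in each line (12.5%). Of all genes 10.3% were in the Fadd line and 5.67% in the Casp8 line. Vdac2, a channel of the outer mitochondrial membrane that binds BAK, averaged 51.6 ± 9.60 TPM in the Fadd/Mlkl knockout and 94.5 ± 9.58 TPM in the Casp8/Mlkl knockout (SD, n = 3 each). Between these knockout groups it was lower in the Fadd/Mlkl knockout by a log2 difference of -0.71 (adjusted p = 0.047, edgeR), where 10.5% of all genes were called. Leaving out any single library of these groups ended the call (adjusted p = 0.0669 to 0.14). Between the restored groups Vdac2 averaged 62.8 ± 11.7 TPM (Fadd-restored) and 92.5 ± 12.6 TPM (Casp8-restored; SD, n = 3 each). The log2 difference there was -0.53, which was not called (adjusted p = 0.155, edgeR). The most abundant genes of the list were Vdac3 (110 TPM), the apoptosis inhibitor Birc5 (83.1 TPM) and Vdac1 (82.1 TPM), and none of these 3 was called in any comparison.

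Of 17 rows for factors that act on family transcription, 15 were tested, and 1 was called in the Fadd line, where 1.52% of all genes were, and 0 in the Casp8 line. In both lines 2 of the 15 were under 0.05 without adjustment (13.3%), against 10.3% of all genes in the Fadd line and 5.67% in the Casp8 line. The log2 change was above 0 for 7 of the 15 in the Fadd line (50.6% of all genes) and for 13 of the 15 in the Casp8 line (51% of all genes), which counts signs and not called changes. Relb, a subunit of NF-kappaB, averaged 16.5 ± 3.62 TPM in the Fadd/Mlkl knockout, against 9.75 ± 0.436 TPM in the Fadd-restored group (SD, n = 3 each). It rose by 0.92 on the log2 scale (SE 0.184, adjusted p = 0.0338, edgeR), and the call was lost with the replicate number as a block within each line (0.89, adjusted p = 0.0643), and without any 1 library but knockout replicate 2 (adjusted p up to 0.159). Relb in the Casp8 line averaged 14.3 ± 1.31 TPM in the knockout, against 9.20 ± 1.21 TPM in the restored group, with a log2 change of 0.67 that was not called (adjusted p = 0.507). Atf4, a stress response factor, was the most abundant at 114 TPM, followed by Trp53, which encodes p53, at 32.7 TPM and Irf1, an interferon response factor, at 30.8 TPM. For Trp53 the log2 change was 0.30 in the Fadd line and 0.31 in the Casp8 line, not called in either (adjusted p = 0.907 and 0.986).

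The 2 genes with the largest spread of group means were Pmaip1 and Bid, at SDs of 1.64 and 0.359 on the log2 CPM scale. Without the replicate 1 libraries of the Casp8 line Pmaip1 was still first, at 2.15, with Bcl2l11 next, at 0.46, and Bid at 0.279. Over the 12 libraries and 10708 genes with a mean of at least 5 CPM, the genes most like Pmaip1 by Pearson correlation of log2 CPM were Pdlim7 (r = 0.989), Dyrk2 (0.981) and Vcl (0.98). After group means were removed the values were 0.979, 0.967 and 0.947 over all 12 libraries, but without the replicate 1 libraries of the Casp8 line they were 0.747, 0.76 and 0.316, against 0.989, 0.985 and 0.982 with group means kept. The likeness to Pmaip1 among libraries of a group thus rested in large part on these 2 libraries, most of all for Vcl. For Bid the genes were Hmgxb3 (0.918), Hps3 (0.907) and Nsmaf (0.904), and 0.924, 0.958 and 0.948 after group means were removed, or 0.905, 0.961 and 0.992 also without the 2 libraries. These libraries share groups and replicate numbers, and the values are descriptions without a test.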

How the data were processed

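Per the labels' protocols, libraries were made from total RNA of 12 cultures with a stranded kit, reads were trimmed in Trim Galore 0.5.0 and aligned with STAR 2.7.5a to mm10 with GENCODE M22, RSEM counted genes, and the authors compared genes with edgeR and limma. The submitters' processing notes also name Picard, HOMER 4.11, SAMtools and DESeq2, with no role. The deposited gene tables hold RSEM expected counts and TPM per the file headers; their FPKM column and a table of retrovirus regions were not used here. Gene positions came from GENCODE M21 on the same build, and promoters and motif searches used RefSeq windows of GRCm38.p6.

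Expected counts were rounded to whole numbers, and 92 spike-in rows at 0 counts were left out. Genes were kept by filterByExpr (minimum count 10), which left 16396, and libraries of 33918359 to 59388559 counts were scaled by TMM. All 12 libraries entered 1 quasi-likelihood fit in edgeR 4.0.16 (R 4.3.3) with a mean for each group, and Benjamini-Hochberg adjusted p-values under 0.05 over all genes tested were called. Each SE was obtained from the log2 change and the F value of its test. The model was first run on simulated data with large changes only and no deviation by replicate number. That run therefore does not bear on small changes or on the replicate numbers. The comparisons were knockout against restored in each line, the difference between these, and Fadd line against Casp8 line in the knockout and in the restored groups. TPM as deposited describe levels; intervals cover the spread between libraries, and 3 libraries a group limit the precision.

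Deviations from the group means correlated between same-numbered libraries at 0.66, 0.391 and 0.639 for replicates 1 to 3 of the Fadd line, and at 0.203, 0.305 and 0.127 for those of the Casp8 line. All were above 0.1, so equal numbers were taken as pairs inside a line, although no label explains them. Across the knockout groups of the lines the correlations were -0.252, 0.0711 and -0.371. Across the restored groups they were 0.317, 0.161 and 0.243, also above 0.1, so agreement by number was not confined to a line. All 10 family genes are named. Of the other lists, called genes and the 3 with the highest mean TPM are named, and for likeness the 3 genes with the highest correlation to the 2 family genes of largest spread between groups. Other values named were chosen after they were seen. An item that the rule names is not reported here. The genes and lists were chosen with earlier results of these data known. Alternatives were other scalings, no filter on low counts, DESeq2 1.42.0, limma 3.58.1 (limma-voom on counts, limma-trend on log2(TPM + 1)), the groups of a comparison alone, replicate blocks and leaving out libraries; those for Fadd, Casp8, Relb and Vdac2, the likeness and spread without 2 libraries and the BH3-only sum without Pmaip1 were added after seeing the data.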

Additional observations from a re-analysis of the deposited data

How the results depend on the processing

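The count of called family genes stayed at 0 of 10 in the Fadd line, in the Casp8 line and for the difference between lines under every alternative run. Between the knockout groups it was 1, but 0 with limma-voom, with log2(TPM + 1) and without both replicate 1 libraries of the Fadd line, 2 when a replicate block within each line was added, and 0 to 1 without 1 library. Between the restored groups it was 1, but 0 with limma-voom, with log2(TPM + 1), with those groups alone and without both replicate 1 libraries of the Fadd line, 2 without both replicate 1 libraries of the Casp8 line, also 2 with that replicate block, and 0 to 2 without 1 library. The calls added by the replicate block within each line were Bax (0.52, adjusted p = 0.0252) between the knockout and Bcl2l1 (0.57, adjusted p = 0.0157) between the restored groups. Between lines this block takes the spread between replicate sets out of the error, so its calls there are no support. The block over all 12 libraries called neither (adjusted p = 0.407 and 0.125) and changed no call of a family gene, and the block within lines changed no other. Over all genes, calls in the Fadd line numbered 250, but 674 with DESeq2, 444 with the block within lines and 111 without both replicate 1 libraries of that line. The Casp8 line's 1 call became 141, 6 and, without both of its replicate 1 libraries, 111 (4 with no filter, 3 on log2(TPM + 1), 0 with its groups alone). The difference between lines had 138 calls, but 413, 239 and 391 in that order, and 61 on log2(TPM + 1). The knockout groups had 1718, but 2768, 3331 and 3305 in that order, and 1046 alone. The restored groups had 1039, but 2009, 2780 and 3118 in that order, 651 on log2(TPM + 1) and 638 without both replicate 1 libraries of the Fadd line. The causes were not tested. The fit with the groups of the comparison alone was not run for the difference between lines, since it uses all groups.

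Values that changed sign belonged to changes that were not called. With library sizes alone, Bcl2l1 was 0.01 between the knockout groups. Mcl1 there was -0.01 with no filter and with those groups alone. With limma-voom, Bcl2 was 0.02 and Bcl2l11 -0.01 in the Fadd line, and Pmaip1 0.01 in the Casp8 line. On log2(TPM + 1), Bcl2l11 was -0.05 and Bbc3 -0.08 in the Fadd line, Bak1 -0.01 for the difference between lines, and Bcl2 -0.05, Mcl1 -0.16 and Bbc3 -0.08 between the knockout groups. With the replicate block within each line, Bcl2l11 was -0.01 in the Fadd line. Without both replicate 1 libraries of the Casp8 line, Mcl1 was -0.06 and Bax -0.04 in that line, Mcl1 0.04 for the difference between lines, and Bcl2l1 0.19 between the knockout groups. Without both of the Fadd line, Mcl1 was 0.03, Bak1 0.02 and Bcl2l11 -0.12 in that line, Mcl1 -0.17, Bcl2l11 -0.08 and Bbc3 -0.08 between the knockout groups, and Mcl1 -0.13 and Bid 0.23 between the restored groups.

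Without 1 library, changes in the Fadd line were -0.22 to 0.15 for Bcl2, -0.21 to 0.25 for Mcl1, -0.18 to 0.57 for Bax, -0.31 to 0.14 for Bak1, -0.46 to 0.42 for Bcl2l11 and -0.08 to 0.39 for Bbc3. In the Casp8 line they were -0.03 to 0.43 for Bcl2l1, -0.15 to 0.18 for Mcl1, -0.07 to 0.25 for Bax and -0.05 to 0.14 for Bad. For the difference between lines they were -0.36 to 0.01 for Bcl2, -0.28 to 0.18 for Mcl1, -0.26 to 0.49 for Bax, -0.14 to 0.30 for Bak1, -0.56 to 0.10 for Bid, -0.73 to 0.15 for Bcl2l11, -0.57 to 0.16 for Bbc3, -0.58 to 0.38 for Pmaip1 and -0.14 to 0.05 for Bad. Between the knockout groups they were -0.19 to 0.19 for Bcl2l1, -0.17 to 0.23 for Mcl1, -0.08 to 0.64 for Bcl2l11 and -0.08 to 0.31 for Bbc3, and between the restored groups -0.15 to 0.25 for Mcl1, -0.42 to 0.21 for Bid and -0.02 to 0.14 for Bad. Where a group was left with 2 libraries, the shared spread of the fit was used.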
